A study of Mus musculus with 6 samples.

Results

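The 8 genes described here form the core of MHC class II antigen presentation in the mouse, and they were taken by symbol from the 56980 genes of the deposited TPM matrix: H2-Aa, H2-Ab1, H2-Eb1, H2-DMa, H2-DMb1, Cd74, Ciita and Cd86. All 8 were found once, and all 8 passed the filter on low values, a mean TPM of 1 or more across the libraries. The study asked how DPP3 released by breast cancer cells bears on lung metastasis. The DPP3_KO lungs (n = 3) came from NSG mice whose mammary fat pad had received MDA-MB-231 cells, a human triple-negative breast cancer line, with DPP3 knocked out, and the Ctrl lungs (n = 3) from NSG mice given the MDA-MB-231 cells labelled Ctrl; both were taken after 5 weeks. The knockout was in the injected tumour cells and not in the mouse, and the labels do not say whether the knockout line was 1 clone. NSG hosts have no mature lymphocytes, and keep neutrophils, macrophages and dendritic cells with known defects.

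Class II molecules display peptides from engulfed proteins to CD4+ T cells. The alpha and beta chains pair in the endoplasmic reticulum on the invariant chain, encoded by Cd74, which blocks the groove until proteases remove it in endosomes. There the heterodimer of H2-DMa and H2-DMb1 exchanges the last fragment of the invariant chain for antigen peptide. Transcription of the chains, of Cd74 and of the H2-DM genes depends on Ciita, the class II transactivator, while Cd86 encodes a costimulatory ligand that T cells read beside the peptide. In mouse lung, class II is carried by dendritic cells, by some macrophages and, at a steady level, by alveolar type 2 cells; in mice with lymphocytes B cells add to it. NSG mice carry the class II haplotype of the NOD strain, which lacks a working H2-Ea gene, and H2-Ea was listed at 0 TPM in all 6 libraries. That haplotype differs in sequence from the C57BL/6 reference genome, so reads of these polymorphic genes can be lost in all 6 libraries alike; this was not tested.

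Ciita acts through factors bound to conserved boxes upstream of the genes it controls. The RefSeq promoter table used here (build GRCm38.p6) held windows for 4 of the 8 genes, H2-Aa, H2-Eb1, H2-DMa and H2-DMb1; H2-Ab1, Cd74, Ciita and Cd86 were not analysed for sequence. Below are the 150 bases before the transcription start of the 3 members with a match to either box in that stretch, shown to compare the order and spacing of the boxes, with capitals marking the letters AGNAACNG of the X1 box and CCAAT of the Y box, searched on both strands (the Y box reads ATTGG where it lies on the other strand).
H2-DMb1, chr17:34153041-34153190, plus strand: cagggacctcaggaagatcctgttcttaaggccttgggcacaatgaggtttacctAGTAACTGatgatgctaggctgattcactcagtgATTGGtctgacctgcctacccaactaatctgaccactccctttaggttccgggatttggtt
H2-Eb1, chr17:34305717-34305866, plus strand: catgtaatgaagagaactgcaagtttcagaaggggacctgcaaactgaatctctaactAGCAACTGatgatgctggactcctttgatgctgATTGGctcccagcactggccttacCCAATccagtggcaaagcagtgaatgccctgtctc
H2-Aa, chr17:34287824-34287973, minus strand: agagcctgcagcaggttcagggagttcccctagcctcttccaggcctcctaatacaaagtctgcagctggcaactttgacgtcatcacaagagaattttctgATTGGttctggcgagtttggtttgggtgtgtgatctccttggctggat
In H2-DMb1 and H2-Eb1 the X1 letters were followed by an inverted Y box after a gap of 26 bases in H2-DMb1 and 25 bases in H2-Eb1, and H2-Eb1 also held a forward CCAAT nearer the start. H2-Aa had the inverted Y box 48 to 44 bases before the start and no exact match to the X1 letters. Upstream of that Y box it held ggcaactt, which differs from the X1 letters at its first and last base. Only exact letters were searched, so a missing match does not show that a box is absent. H2-DMa has 2 windows, and of these 1 held an inverted Y box and neither held the X1 letters. Over all 32817 windows of 250 upstream bases, 33.8% held CCAAT, 14.5% held AGNAACNG and 4.79% held both. An X1 match followed by the inverted Y box at a gap of 25 or 26 bases, a spacing chosen after these sequences were seen, occurred in 6 windows (0.0183%): those of H2-DMb1, H2-Eb1, the neighbouring H2-Eb2, Mir155hg, Mylk4 and 4930477N07Rik.

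The invariant chain was the most abundant of the 8 transcripts and showed a shape also seen in H2-Aa, H2-Ab1, H2-Eb1, H2-DMa and H2-DMb1. Cd74 (ENSMUSG00000024610) stood at 436, 182 and 481 TPM in DPP3_KO replicates 1, 2 and 3, against 1306, 935 and 366 TPM in Ctrl replicates 1, 2 and 3. Ctrl replicates 1 and 2 were high, while Ctrl replicate 3 lay inside the DPP3_KO range, so the groups overlapped. The mean was 366 ± 161 TPM in DPP3_KO and 869 ± 473 TPM in Ctrl (SD, n = 3 each). The log2 change, always DPP3_KO minus Ctrl on log2(TPM + 1), was -1.18 ± 0.54 SE and did not pass (limma, Benjamini-Hochberg adjusted p = 0.120).

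The chains that present peptide behaved in the same way. H2-Aa (ENSMUSG00000036594), the alpha chain of the H2-A molecule, held 219, 107 and 255 TPM in DPP3_KO and 598, 528 and 241 TPM in Ctrl (log2 change -1.22 ± 0.44 SE, limma adjusted p = 0.0641). H2-Ab1 (ENSMUSG00000073421), its beta chain, held 129, 52.8 and 144 TPM in DPP3_KO and 362, 292 and 103 TPM in Ctrl (-1.15 ± 0.55 SE, limma adjusted p = 0.130). Again only Ctrl replicates 1 and 2 stood above every DPP3_KO library, and neither gene passed. H2-Eb1 (ENSMUSG00000060586), the beta chain of H2-E, held 176, 92.0 and 229 TPM in DPP3_KO and 365, 257 and 118 TPM in Ctrl, a smaller log2 change of -0.52 ± 0.48 SE (limma adjusted p = 0.399). Its groups overlapped too. The close copy H2-Eb2 stood at 0.13 to 0.19 TPM in DPP3_KO and 0.14 to 0.57 TPM in Ctrl, and was too low to be tested.

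The peptide exchange genes were an order of magnitude lower in TPM, which is scaled by gene length, and their groups overlapped as well. H2-DMa (ENSMUSG00000037649) held 23.5, 16.8 and 23.3 TPM in DPP3_KO and 56.5, 45.3 and 23.1 TPM in Ctrl (log2 change -0.87 ± 0.34 SE, limma adjusted p = 0.0779). H2-DMb1 (ENSMUSG00000079547) held 15.3, 4.82 and 12.2 TPM in DPP3_KO and 39.8, 31.1 and 14.6 TPM in Ctrl (-1.34 ± 0.48 SE, limma adjusted p = 0.0629). The second beta gene, H2-DMb2, is a near copy that can share its reads, so the value of each is uncertain. H2-DMb2 held 11.3, 2.65 and 7.45 TPM in DPP3_KO and 30.2, 21.2 and 12.7 TPM in Ctrl, without overlap, and fell by 1.55 on the log2 scale (limma adjusted p = 0.0443). With median-of-ratios scaling of the libraries it stood at -0.94 (adjusted p = 0.330). Leaving out Ctrl replicate 1 or 2, or DPP3_KO replicate 2 or 3, ended this call (adjusted p = 0.0764 to 0.124).

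Ciita, the transactivator, was the 1 member of 8 that passed. It stood at 1.26, 0.69 and 0.40 TPM in DPP3_KO, against 6.10, 6.91 and 1.38 TPM in Ctrl. The groups did not overlap, though Ctrl replicate 3 lay just above the highest DPP3_KO library. Ciita (ENSMUSG00000022504) fell by 1.55 ± 0.49 SE on the log2 scale (limma adjusted p = 0.0442), with means of 0.783 ± 0.438 TPM in DPP3_KO and 4.80 ± 2.99 TPM in Ctrl (SD, n = 3 each). The pseudocount of 1 understates the change of a gene this low. The DPP3_KO mean of Ciita lay under the filter of 1 TPM, which the gene passed only through its Ctrl libraries. Its call has to be read with that limit. With each library left out in turn the log2 change ran from -2.10 to -1.23, and the call was kept only without Ctrl replicate 3 (limma adjusted p = 0.0210); without any 1 of the others the adjusted p was 0.0623 to 0.144.

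Cd86, the costimulatory ligand, did not follow the others. It held 5.67, 6.89 and 9.48 TPM in DPP3_KO and 5.35, 4.55 and 8.58 TPM in Ctrl, and the groups overlapped. Its log2 change (ENSMUSG00000022901) was 0.24 ± 0.28 SE (limma adjusted p = 0.516). Ctrl replicate 3, the lowest Ctrl library for the other 7 genes, was the highest for Cd86.

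**Figure D1:**
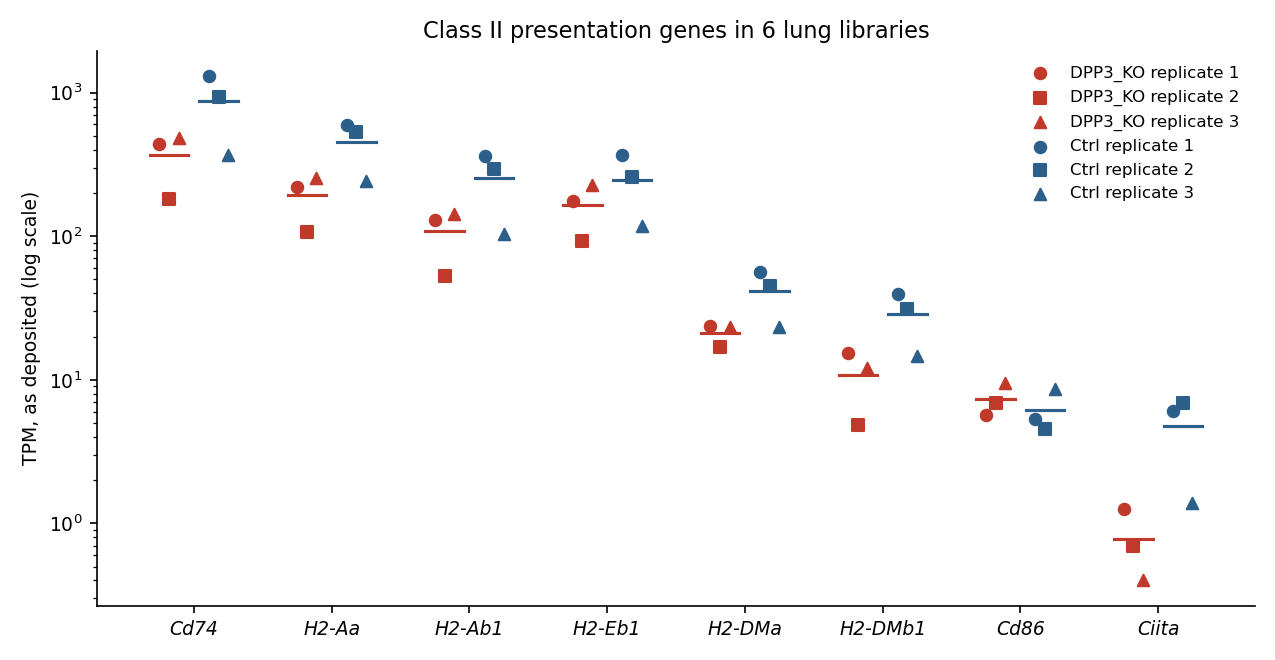
TPM of the 8 genes in each lung library on a log axis, with DPP3_KO libraries in red and Ctrl libraries in blue, and a bar for the group mean (n = 3 each). Ctrl replicate 3 (blue triangle) lies inside the DPP3_KO range for H2-Aa, H2-Ab1, H2-Eb1, Cd74, H2-DMa and H2-DMb1, and Ciita is the 1 gene whose groups do not overlap.

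By level, Cd74 led in every library, H2-Aa came second, and H2-DMa and H2-DMb1 followed the beta chains. Cd86 was lowest in Ctrl replicates 1 and 2, at 5.35 and 4.55 TPM, where Ciita was at 6.10 and 6.91 TPM. In the other libraries Ciita was lowest. There Cd86 came between H2-DMb1 and Ciita except in DPP3_KO replicate 2, where H2-DMb1 was at 4.82 TPM and Cd86 at 6.89 TPM. In Ctrl, H2-Ab1 and H2-Eb1 changed places between libraries, and their means, 252 ± 134 and 247 ± 124 TPM (SD, n = 3), did not differ beyond their spread. In DPP3_KO, H2-Eb1 was above H2-Ab1 in all 3 libraries. The 8 genes together took 0.101%, 0.0463% and 0.115% of all TPM in DPP3_KO replicates 1 to 3 and 0.274%, 0.210% and 0.0877% in Ctrl replicates 1 to 3. In these bulk samples, fewer class II-bearing cells and less class II RNA per cell cannot be told apart.

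The count of 1 lower member of 8 has to be read against the whole matrix, in which 34.0% of the 15650 tested genes were lower in DPP3_KO at the same threshold and 1.38% higher. The median log2 change over all tested genes was -0.60, in libraries where the airway secretoglobin Scgb1a1 took 21.7% to 28.7% of all TPM in DPP3_KO and 7.16% to 10.1% in Ctrl. The median over the 8 members was -1.17. Groups that did not overlap, with DPP3_KO lower, made up 1 of the 8 members, beside 51.1% of tested genes, and with DPP3_KO higher 0 members, beside 2.73%. Median-of-ratios scaling, which divides each library by its typical ratio to the average library, brought the median of all genes to -0.02, with 0.888% of genes lower and 1.94% higher. After it 0 of the 8 members passed (limma, adjusted over all genes), and 0 had groups that did not overlap, beside 15.2% of genes without overlap and lower and 14.9% without overlap and higher.

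The scaled values kept 6 members negative. Ciita stood at -1.15 ± 0.45 SE (limma adjusted p = 0.192), H2-DMb1 at -0.72, H2-Aa at -0.56, Cd74 at -0.52, H2-Ab1 at -0.49 and H2-DMa at -0.22. H2-Eb1 turned to 0.14 after scaling, and Cd86 stood at 0.81 ± 0.32 SE (limma adjusted p = 0.198). Scaled Cd74 was 541, 204 and 688 in DPP3_KO and 1042, 696 and 310 in Ctrl, so that Ctrl replicate 2 and DPP3_KO replicate 3 lay close and the lowest library was DPP3_KO replicate 2.

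**Figure D2:**
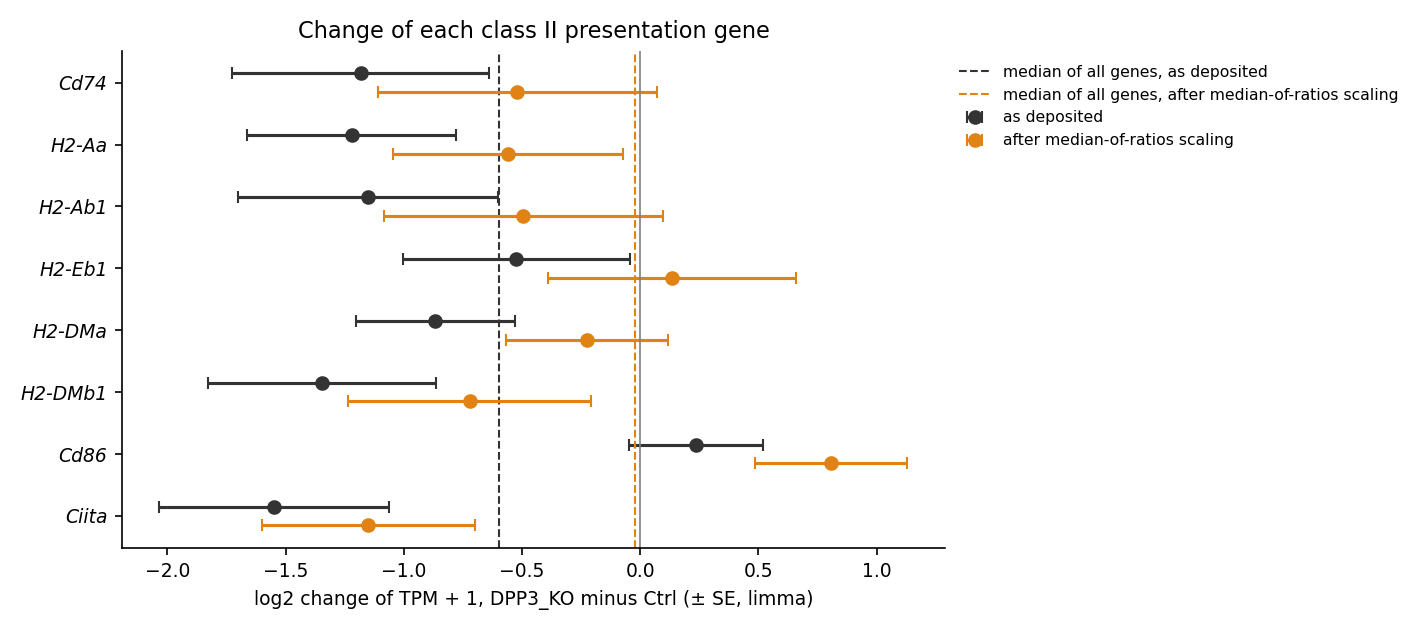
Log2 change of TPM + 1 (DPP3_KO minus Ctrl, points, with bars of 1 SE from limma, n = 3 each) for the 8 genes, as deposited in black and after median-of-ratios scaling in orange. Dashed lines mark the median of all 15650 genes at -0.60 and -0.02, and the error bars of H2-Eb1 and H2-DMa cross the line of their own colour in both scalings.

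How many members passed as deposited changed with the library left out: without any 1 of the 5 libraries other than Ctrl replicate 3, 0 passed. Calls over all genes changed as well. Without Ctrl replicate 1, 1037 of 15526 were lower and 64 higher, and without Ctrl replicate 2, 85 of 15503 and 6. Without DPP3_KO replicates 1, 2 and 3, 3238 of 15759, 5049 of 15675 and 1726 of 15810 were lower. The higher counts were 153, 139 and 131. Without Ctrl replicate 3, 6 of 8 members were lower as deposited, and 0 higher, beside 28.8% of all tested genes lower and 1.04% higher, with Cd74 at -1.71 and H2-Ab1 at -1.70; H2-Eb1 and Cd86 were the exceptions. After median-of-ratios scaling 0 of 8 passed without that library, beside 0.355% of genes lower and 0.671% higher. Sample quality weights also gave 6 lower members, beside 45.9% of all genes lower and 1.78% higher. Ctrl replicate 3 also held the most neutrophil transcripts. Of the 6 neutrophil markers, S100a8, S100a9, Retnlg, Csf3r, Cxcr2 and Mmp8, 0 passed as deposited, beside 34.0% of all genes lower and 1.38% higher. These markers summed to 1639, 34395 and 14568 TPM in DPP3_KO and to 3995, 7114 and 51309 TPM in Ctrl. The library highest for them within each group, DPP3_KO replicate 2 and Ctrl replicate 3, was the lowest of its group for Cd74, H2-Aa, H2-Ab1, H2-Eb1, H2-DMa and H2-DMb1. Without these libraries, an alternative added after the values were seen, 6 of 8 members were lower as deposited (28.7% of all genes lower and 0.755% higher) and 0 after scaling (0.0194% lower and 0.00645% higher). The part of neutrophil content in the class II values was not tested.

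A ratio between a pair of genes in the same library does not depend on how libraries are scaled, so these ratios describe how closely the members varied together. Across all 6 libraries Cd74 spanned a 7.18-fold range, whereas the ratio of H2-Ab1 to Cd74 spanned 1.13-fold. That ratio was 0.296, 0.290 and 0.299 in DPP3_KO and 0.277, 0.313 and 0.282 in Ctrl. H2-Aa to Cd74 ran from 0.501 to 0.588 in DPP3_KO and from 0.458 to 0.659 in Ctrl, and H2-Aa to H2-Ab1 from 1.69 to 2.03 in DPP3_KO and from 1.65 to 2.33 in Ctrl. The H2-A chains and the invariant chain kept close proportions, with group differences of -0.04, 0.02 and -0.06 on the log2 scale (2-sided exact permutation p = 0.9, 0.7 and 0.8).

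H2-Eb1 varied more against H2-Ab1 and Cd74 than H2-Aa did, though no group difference passed. Its ratio to H2-Ab1 was 1.36, 1.74 and 1.59 in DPP3_KO and 1.01, 0.879 and 1.14 in Ctrl, without overlap. The mean log2 ratio differed by 0.63, a 1.55-fold higher share in DPP3_KO (2-sided exact permutation p = 0.1, the smallest that 3 against 3 can give). The ratio of H2-Eb1 to Cd74 differed by 0.66, with values of 0.402 to 0.505 in DPP3_KO and 0.275 to 0.321 in Ctrl (exact permutation p = 0.1). Of the 17 gene pairs compared, 4 had groups that did not overlap, and the lowest Benjamini-Hochberg adjusted p over the pairs was 0.425, so none passed. With each library left out in turn the H2-Eb1 to H2-Ab1 difference stayed between 0.54 and 0.73.

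The DM genes did not keep one proportion to each other. The ratio of H2-DMa to H2-DMb1 was 1.54, 3.49 and 1.92 in DPP3_KO and 1.42, 1.46 and 1.58 in Ctrl, with DPP3_KO replicate 2 standing apart (exact permutation p = 0.2). Ciita relative to Cd74 was 0.0029, 0.0038 and 0.00083 in DPP3_KO and 0.0047, 0.0074 and 0.0038 in Ctrl, a difference of -1.28 on the log2 scale whose groups met at 0.0038 (exact permutation p = 0.2). With 1 library left out it ran from -1.71 (without DPP3_KO replicate 2) to -0.61 (without DPP3_KO replicate 3). Cd86 relative to Cd74 was 0.0130, 0.0379 and 0.0197 in DPP3_KO and 0.0041, 0.0049 and 0.0234 in Ctrl. Ctrl replicate 3 lay with the DPP3_KO libraries in that ratio (exact permutation p = 0.3).

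**Figure D3:**
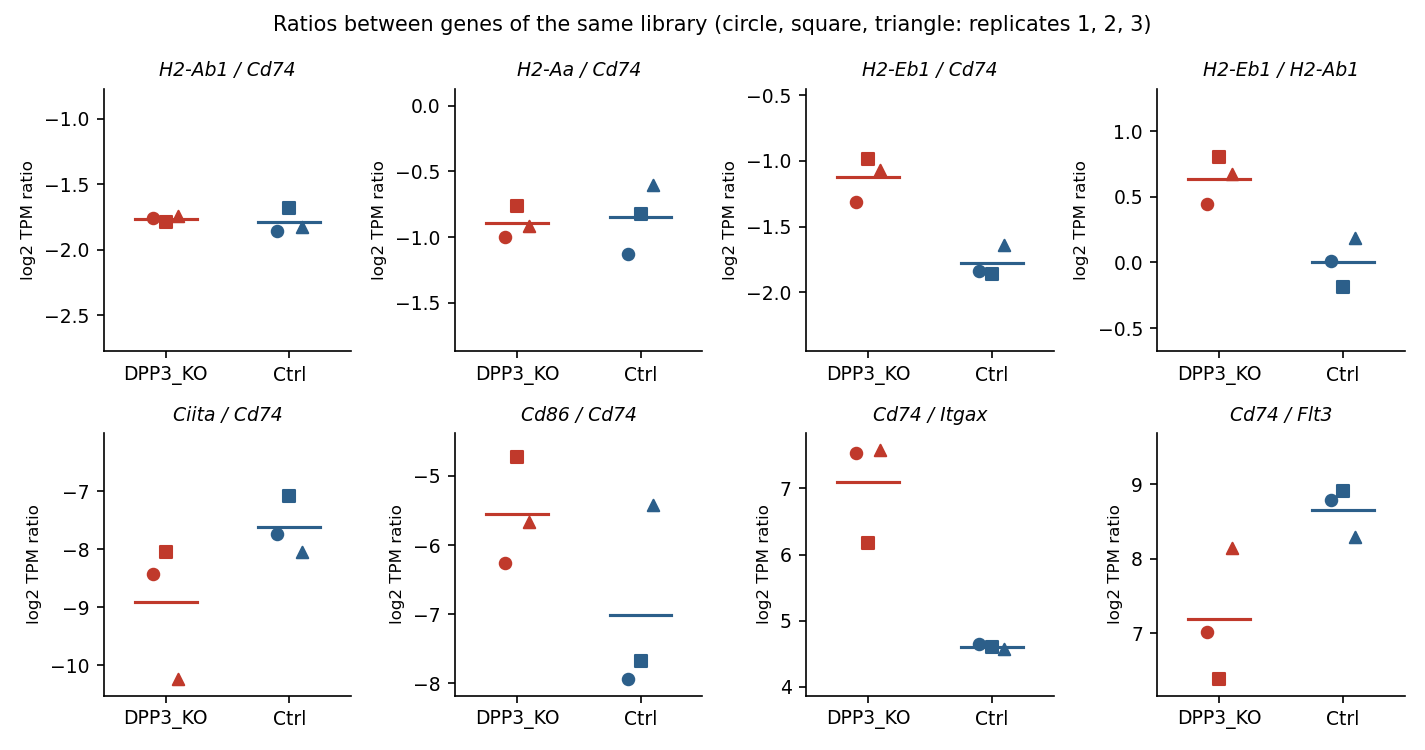
Log2 ratios of TPM between gene pairs of the same library, with DPP3_KO left of Ctrl, a symbol for each replicate and a bar for the mean (n = 3 each). The H2-Ab1 to Cd74 ratio is level across the libraries, and the groups do not overlap for H2-Eb1 to Cd74, H2-Eb1 to H2-Ab1, Cd74 to Itgax and Cd74 to Flt3.

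Among the other genes of the pathway, 14 of 31 tested fell and 0 rose as deposited, beside 34.0% of all genes lower and 1.38% higher. After median-of-ratios scaling 0 passed, beside 0.888% lower and 1.94% higher. The median log2 change was -0.79 as deposited and -0.16 after scaling, beside -0.60 and -0.02 over all genes. Of 15 tested transcription genes 7 fell as deposited, beside 34.0% of all genes, and 0 after scaling, beside 0.888%. Jak1, a kinase of the interferon receptors, held 29.6, 36.1 and 22.0 TPM in DPP3_KO and 69.8, 85.4 and 99.0 TPM in Ctrl, and fell by 1.52 on the log2 scale (limma adjusted p = 0.0145; -0.87 after scaling, adjusted p = 0.0732). Nfyc, a subunit of the factor that binds the Y box, fell by 0.83 (limma adjusted p = 0.0183; 0.0531 without Ctrl replicate 1 and 0.0865 without Ctrl replicate 2) and stood at -0.19 after scaling (adjusted p = 0.473). Without Ctrl replicate 2, 0 of the pathway genes passed, with limma adjusted p = 0.0713 for Jak1 and 0.0662 for Ctsd. In that fit only 85 of 15503 genes over the whole matrix were lower and 6 higher, beside 5321 and 216 of 15650 with all samples. Any single call lost without Ctrl replicate 2, here or below, has to be read beside that fall. Ifng, the gene of the cytokine that induces Ciita, was listed at 0 TPM in 5 of 6 libraries and at 0.51 TPM in Ctrl replicate 2.

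Of 9 genes that process the invariant chain and antigen, 4 fell as deposited, beside 34.0% of all genes, and 0 after scaling, beside 0.888%. Ctsd, an endosomal aspartic protease, held 217, 367 and 271 TPM in DPP3_KO and 954, 795 and 760 TPM in Ctrl (log2 change -1.58, limma adjusted p = 0.0145), and stood at -0.91 after scaling. Sppl2a, which clears the membrane stub of the invariant chain, fell by 1.11 on the log2 scale (limma adjusted p = 0.0235) and stood at -0.47 after scaling (adjusted p = 0.281); it lost its call without Ctrl replicate 1 or 2 or DPP3_KO replicate 1 or 3 (adjusted p = 0.0525 to 0.0911). Marchf8, a membrane ubiquitin ligase, fell by 1.37 (limma adjusted p = 0.0164; 0.0759 without Ctrl replicate 2) and stood at -0.73 after scaling (adjusted p = 0.1002). Ctss, the cathepsin that trims the invariant chain in dendritic cells and macrophages, held 90.8, 295 and 297 TPM in DPP3_KO and 354, 317 and 592 TPM in Ctrl and did not pass, though the groups did not overlap (limma adjusted p = 0.132). Marchf1, which removes class II from the surface of resting dendritic cells, held 1.82, 12.3 and 5.05 TPM in DPP3_KO and 7.65, 8.76 and 26.9 TPM in Ctrl. Its groups overlapped.

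Of 5 tested costimulation genes 2 fell as deposited, beside 34.0% of all genes, and 0 after scaling, beside 0.888%. The 2 were Cd274, the inhibitory ligand PD-L1 (log2 change -1.40, limma adjusted p = 0.0177), and Cd40 (-0.74, limma adjusted p = 0.0416). Cd274 stood at -0.82 and Cd40 at -0.11 after scaling. Cd274 lost its call without Ctrl replicate 2 (limma adjusted p = 0.0782) or DPP3_KO replicate 3 (0.0512), and the call of Cd40 was kept only when DPP3_KO replicate 1 was the library left out. Cd80, the partner of Cd86 in costimulation, held 3.60, 4.65 and 3.95 TPM in DPP3_KO and 2.36, 1.42 and 5.65 TPM in Ctrl. As with Cd86, Ctrl replicate 3 was the highest Ctrl library. The class I genes give a comparison within the same libraries: 9 of 14 were lower as deposited and 0 after scaling, beside 34.0% and 0.888% of all genes, with medians of -0.85 and -0.20, beside -0.60 and -0.02 over all genes. B2m, the class I light chain, held 813, 1055 and 1193 TPM in DPP3_KO and 2611, 2499 and 2466 TPM in Ctrl and fell by 1.32 (limma adjusted p = 0.0145; 0.0720 without Ctrl replicate 2); after scaling it stood at -0.66 (adjusted p = 0.189). Its Ctrl libraries lay close together where those of Cd74 spread 3.57-fold. The ratio of Cd74 to B2m was 0.536, 0.172 and 0.403 in DPP3_KO and 0.500, 0.374 and 0.149 in Ctrl (exact permutation p = 0.7).

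Markers of the cells that carry class II moved in different directions. Of 7 tested conventional dendritic cell genes 3 fell as deposited, beside 34.0% of all genes, and 2 after scaling, Itgax and Clec9a, beside 0.888%. The median log2 change of this list was -0.50 as deposited and 0.05 after scaling, beside -0.60 and -0.02 over all genes. Itgax, an integrin chain of dendritic cells that alveolar macrophages also make, held 2.35, 2.51 and 2.52 TPM in DPP3_KO and 52.2, 38.7 and 15.4 TPM in Ctrl (log2 change -3.24, limma adjusted p = 0.0145; -2.67 after scaling, adjusted p = 0.0240). Clec9a, a receptor of cross-presenting dendritic cells, fell by 1.74 (limma adjusted p = 0.0145), or 1.19 after scaling (adjusted p = 0.0240). Without Ctrl replicate 2 neither call was kept as deposited, at adjusted p = 0.0572 for Itgax and 0.0612 for Clec9a. Flt3, the cytokine receptor of dendritic cell precursors, held 3.36, 2.17 and 1.69 TPM in DPP3_KO and 2.96, 1.95 and 1.17 TPM in Ctrl. After scaling Flt3, Batf3 and Clec10a were higher in DPP3_KO without overlap, as were 14.9% of all genes. They did not pass (limma adjusted p = 0.126 to 0.249). Itgax and Clec9a were lower without overlap after scaling, as were 15.2% of all genes. The list summed to 30.7 to 40.0 TPM in DPP3_KO and 56.4 to 104 TPM in Ctrl, with Itgax included. Per unit of Itgax, Cd74 was 186, 72.5 and 191 in DPP3_KO and 25.0, 24.2 and 23.8 in Ctrl. Per unit of Flt3 it was 130, 83.9 and 284 in DPP3_KO and 441, 480 and 313 in Ctrl, so the direction depended on the marker (exact permutation p = 0.1 for each).

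Of 5 tested genes of mature dendritic cells, 3 rose as deposited, beside 1.38% of all genes, and 1 after scaling, beside 1.94%. Ccr7, the receptor that takes mature dendritic cells to lymph nodes, held 40.2, 15.2 and 12.3 TPM in DPP3_KO and 6.56, 6.23 and 3.67 TPM in Ctrl (log2 change 1.71, limma adjusted p = 0.0268; 2.30 after scaling, adjusted p = 0.0459). Fscn1, an actin-bundling protein of their dendrites, rose by 1.78 as deposited (limma adjusted p = 0.0392) and did not pass at 2.41 after scaling (adjusted p = 0.0569). Its call as deposited was kept only when DPP3_KO replicate 3 was the library left out (adjusted p = 0.0721 to 0.0960 for the others). Without Ctrl replicate 1, 2 or 3, Ccr7 stood at 1.83, 1.80 and 1.48 and did not pass (limma adjusted p = 0.0593, 0.0877 and 0.0580). DPP3_KO replicate 1, the highest library for this list at 256 TPM summed, was not the highest of its group for Cd74.

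Other candidate sources were measured in the same way. Of 12 alveolar macrophage genes 9 fell as deposited, beside 34.0% of all genes, and 6 after scaling, beside 0.888%; their sum was 315, 2016 and 597 TPM in DPP3_KO and 3004, 2470 and 4135 TPM in Ctrl. Atp6v0d2, a proton pump subunit, and Mrc1, the mannose receptor, fell by 3.83 and 2.22 on the log2 scale, and by 3.30 and 1.59 after scaling. The interstitial macrophage list had 0 of 7 genes passing as deposited, beside 34.0% of all genes lower and 1.38% higher. Its sum overlapped, at 1900 to 3281 TPM in DPP3_KO and 1725 to 2511 TPM in Ctrl. Of 8 monocyte genes 3 fell as deposited, beside 34.0% of all genes, among them Ly6c2 (-1.54) and Ccr2 (-1.25), and 0 after scaling, beside 0.888%. Ly6c2 lost its call without Ctrl replicate 2 (limma adjusted p = 0.0567), and Ccr2 without any 1 library other than DPP3_KO replicate 2 (0.0520 to 0.105). Alveolar type 2 genes had 5 of 8 lower as deposited, beside 34.0% of all genes, with Slc34a2 at -1.48 and Lamp3 at -1.56, and 0 after scaling, beside 0.888%. Slc34a2 lost its call without Ctrl replicate 2 (limma adjusted p = 0.0736), and Lamp3 without Ctrl replicate 1, Ctrl replicate 2 or DPP3_KO replicate 3 (0.0511 to 0.0815). Their sum, most of it the surfactant gene Sftpc, was 29502, 18668 and 25232 TPM in DPP3_KO and 48610, 39365 and 26130 TPM in Ctrl, highest in Ctrl replicates 1 and 2 and lowest in DPP3_KO replicate 2, as it was for Cd74. After scaling the sum was 36596, 20969 and 36105 in DPP3_KO and 38767, 29283 and 22090 in Ctrl, so Ctrl replicate 2 no longer lay above DPP3_KO replicates 1 and 3.

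Lymphocyte markers were low, and some of them were at or near 0. The B cell genes Ms4a1, Cd79a and Pax5 did not exceed 0.08 TPM in DPP3_KO or 0.20 TPM in Ctrl. Cd79b, at 2.97 to 5.12 TPM in DPP3_KO and 3.82 to 6.95 TPM in Ctrl, was alone tested of the 7 B cell genes. Fcer2a, too low to be tested, held 0.24, 0.60 and 0.16 TPM in DPP3_KO and 2.05, 1.85 and 0.74 TPM in Ctrl. The list summed to 3.59 to 5.40 TPM in DPP3_KO and 5.27 to 9.20 TPM in Ctrl. Of the 6 T cell genes Cd3d alone was tested and did not pass, at 0.04, 1.79 and 1.39 TPM in DPP3_KO and 0.97, 0.88 and 1.42 TPM in Ctrl. Cd4 held 0.25 to 1.23 TPM in DPP3_KO and 0.45 to 1.42 TPM in Ctrl. Cd3e was listed at 0 TPM in all DPP3_KO libraries and did not exceed 0.03 TPM in Ctrl. The T cell sum was 0.85 to 2.81 TPM in DPP3_KO and 1.57 to 2.87 TPM in Ctrl. Of 6 club cell genes 4 rose as deposited, beside 1.38% of all genes, and 2 after scaling, beside 1.94%. Of 8 capillary endothelium genes 7 fell as deposited, beside 34.0% of all genes, and 2 after scaling, beside 0.888%. The pan-leukocyte list of 6 genes had 0 passing as deposited, beside 34.0% of all genes lower and 1.38% higher. Its sums were 254, 1695 and 982 TPM in DPP3_KO and 807, 895 and 2385 TPM in Ctrl. The ratio of Cd74 to the pan-leukocyte gene Ptprc spanned 1.66 to 29.0 in DPP3_KO and 1.76 to 21.1 in Ctrl (exact permutation p = 0.8). The part of each of these cell lists in the class II values was not tested.

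**Figure D4:**
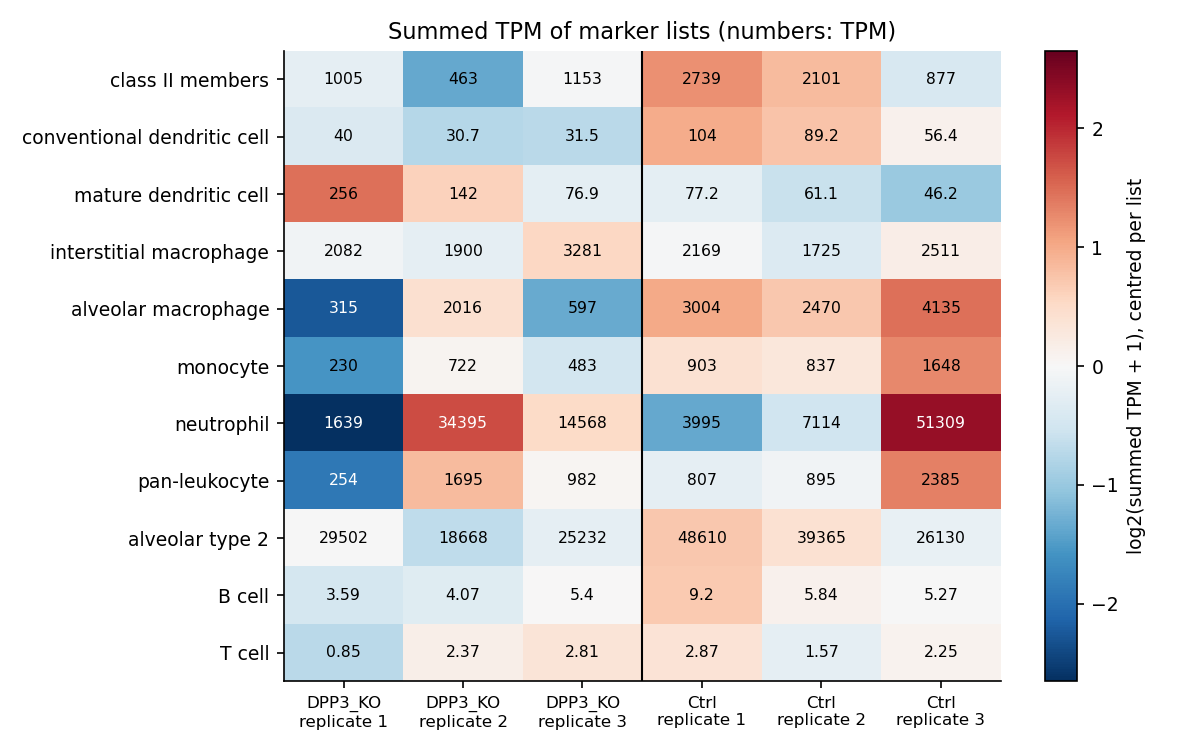
Summed TPM of the 8 class II genes and of 10 marker lists in each library, printed in the cells, with colour for log2(sum + 1) centred on the mean of each row. The class II sum is highest in Ctrl replicates 1 and 2, at 2739 and 2101 TPM, and lowest in DPP3_KO replicate 2, at 463 TPM, while the neutrophil row is highest in Ctrl replicate 3.

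The genes with profiles closest to the members were found by the distance between centred log2 values over the 6 libraries after median-of-ratios scaling, among 11157 other genes whose mean TPM was 5 or more. The nearest were Emcn, the endothelial sialomucin endomucin (root mean square distance 0.084 on the log2 scale), the carboxypeptidase gene Cpq (0.094), the interferon-induced tetherin gene Bst2 (0.12), Krtap17-1 (0.14) and the phospholipase gene Plb1 (0.14). Bst2 held 129, 88.2 and 144 TPM in DPP3_KO and 284, 273 and 136 TPM in Ctrl, with Ctrl replicates 1 and 2 highest and DPP3_KO replicate 2 lowest, as for Cd74. Among the members, H2-DMa (0.14) and H2-Aa (0.16) lay closest to their common profile, Cd74 (0.25) and H2-Ab1 (0.25) followed, and Ciita (0.61) and Cd86 (0.88) lay farthest. That profile is the mean of all 8 members, Ciita and Cd86 included. Of the 11157 other genes, 94 were nearer to it than Cd74, 8 nearer than H2-Aa and 5 nearer than H2-DMa. Those 5 genes lay nearer than any member, so the profile is shared by some genes outside the members.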

How the data were processed

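Bulk RNA was sequenced from 6 lungs, with libraries made from total RNA by a TruSeq kit, per the labels' protocols. The values are TPM in a single matrix deposited by the authors; the submitters' processing notes list HISAT2, StringTie, RSEM and GRCm39, with no version or role, and which annotation, strand setting and treatment of human reads applied is not stated there. Groups and replicate numbers came from the titles; the third Ctrl title gives another cell line number, read as a slip. Every TPM column has the same sum within rounding, so depth is unknown and no counting interval is given. All value columns matched a sample (0 did not).

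Values were taken as log2(TPM + 1), and genes whose mean TPM reached 1 (15650) were fitted with limma 3.58.1 in R 4.3.3 (intensity trend, two-sided, Benjamini-Hochberg over all tested genes, threshold 0.05). The fit was tested on simulated data. Ratios were compared by exact permutation tests. The labels do not say that each library came from a separate mouse, so p-values reflect only how these samples vary, which may be technical.

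The members, gene lists and tests were chosen with earlier results of these data known. The genes named were the 8 members, the 3 tested genes with the smallest p of each pathway list, the 2 of each cell type list, B2m, Scgb1a1 and the 5 nearest profiles, 47 in all, of which 25 passed on deposited TPM and 7 with median-of-ratios scaling. Other members of the lists, and the genes sharing the promoter spacing, were chosen after their values were seen. Named genes outside the members that did not pass are given by TPM or left out, and some listed genes are not reported here. Alternatives were other scalings, pseudocounts, filters, limma settings, the replicate number as a block and each sample left out.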

Additional observations from a re-analysis of the deposited data

How the results depend on the processing

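The count of 1 lower member of 8 became 0 with quantile normalization, median-of-ratios scaling, TPM rescaled without Scgb1a1, a pseudocount of 5, no filter, a mean of at least 5 TPM (which leaves Ciita untested) and the replicate block with median-of-ratios scaling. It became 6 with sample quality weights, when 45.9% of all genes were lower, and 6 without Ctrl replicate 3 and DPP3_KO replicate 2 together, or 0 after scaling. Each sample left out in turn gave 0 to 6 as deposited and 0 to 0 after median-of-ratios scaling. Over all genes, the same fits gave 85 (without Ctrl replicate 2) to 5049 (without DPP3_KO replicate 2) lower genes as deposited. The count of members stayed 1 with a pseudocount of 0.1, without the trend and with robust estimation. The 14 lower genes of the other pathway lists became 0 with median-of-ratios scaling, 1 with quantile normalization, 3 with TPM rescaled without Scgb1a1, 8 with no filter, 0 with the replicate block and median-of-ratios scaling, and 0 without Ctrl replicate 3 and DPP3_KO replicate 2 after scaling; each sample left out gave 0 (without Ctrl replicate 2) to 14, and 0 to 0 after scaling. The causes were not tested.

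Directions turned as follows after median-of-ratios scaling. H2-Eb1 stood at 0.14 with all samples and with the replicate block, at 0.19 without Ctrl replicate 3 and DPP3_KO replicate 2, and between -0.27 and 0.60 with each sample left out (0.49 without Ctrl replicate 1, 0.060 without DPP3_KO replicate 1). With each sample left out, H2-Ab1 ran from -0.99 to 0.046, H2-DMa from -0.54 to 0.037 (0.015 without DPP3_KO replicate 2), Cd74 from -1.001 to 0.013, Cd40 from -0.32 to 0.019 (0.043 without Ctrl replicate 3 and DPP3_KO replicate 2), Emcn from -0.56 to 0.061, Bst2 from -0.53 to 0.065, Krtap17-1 from -0.74 to 0.14 and Plb1 from -0.59 to 0.22 (0.12 without Ctrl replicate 1). Among the log2 ratios, H2-Aa to Cd74 ran from -0.18 to 0.083 with each sample left out (0.020 without Ctrl replicate 3 and DPP3_KO replicate 2), H2-Ab1 to Cd74 from -0.011 to 0.076, H2-Aa to H2-Ab1 from -0.17 to 0.080 (0.0047 without both), Cd74 to B2m from -0.37 to 0.62 and Cd74 to Ptprc from -0.70 to 1.54. The other ratios kept their sign under the alternatives run.

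The replicate numbers were not shown to pair the samples: deviations from the group means of same-numbered samples correlated at 0.27, -0.21 and 0.15, and DPP3_KO replicate 2 correlated best with Ctrl replicate 3, at 0.41. With the replicate number as a block the counts were 1 of 8 members and 14 pathway genes. TPM keeps no depth, so the precision of genes near 1 TPM such as Ciita is unknown.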
